A study of Mus musculus with 2 samples.

Results

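Muscle stem cells (MuSCs) were taken from a single-cell table of injured mouse muscle as the cells with at least 2 of the genes Pax7, Myf5, Cdh15, Chodl and Myod1 detected (a value above 0) and with Pdgfra, Cdh5 and Ptprc all at 0. The rule found 444 of 13432 cells, 208 of 6354 in the library labelled WT and 236 of 7078 in that labelled KO. The study asked how loss of the pore-forming protein GSDME changes muscle repair after cardiotoxin (CTX), a snake venom toxin that destroys muscle fibers. Both libraries came from gastrocnemius muscle of male mice on day D14 after CTX, 1 library from WT C57BL/6J mice and 1 from mice lacking Gsdme in every tissue. Littermates came from crosses of heterozygotes. The sources used here do not say whether mice were pooled for a library, and do not give the age of these mice. Because the deletion is global, a difference in MuSCs cannot be told apart from an effect of other cells that lack the gene. Each genotype is 1 library, so no test between genotypes was possible. All intervals are 95% intervals and cover counting error only, or, for the median of a gene list, the spread among its genes.

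MuSCs lie under the sheath of the muscle fiber, held in quiescence in part by Notch signaling, and express the transcription factor Pax7. After injury they leave quiescence, express Myod1 and divide. Some then express Myog, exit the cell cycle and fuse into new fibers, while others return to the stem-cell pool. Tissue digestion by itself induces immediate-early and heat-shock genes in MuSCs, which is known background for any dissociated muscle sample and was not tested here.

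MuSCs made up 3.27% of the cells (2.85 to 3.74) under the WT label and 3.33% (2.93 to 3.78) under the KO label. The difference was 0.0607 percentage points (-0.558 to 0.675), within counting error of 0. With Pax7 required of each MuSC it was 0.683 percentage points (0.172 to 1.192), an interval above 0, and with at least 3 rule genes 0.527 (-0.007 to 1.058). Each cell's RNA molecules are counted by unique molecular identifiers (UMIs), and the MuSCs held 1752040 UMIs in the library labelled WT and 1561372 in that labelled KO. The median MuSC had 7074.5 UMIs (range, 683 to 71587) and 2391.5 genes in the former, and 5621.5 UMIs (557 to 33494) and 2076.5 genes in the latter. Levels are therefore given per 1000000 UMIs (CPM), since a gene is detected more easily in a deeper cell. Gsdme itself had 9 UMIs in the MuSCs labelled WT (5.14 CPM; 2.35 to 9.75) and 13 in those labelled KO (8.33 CPM; 4.43 to 14.2). Over all cells it stood at 5.03 and 4.65 CPM. Gsdme RNA thus did not separate the libraries. The sources used here do not say which part of the gene was deleted, and each direction below rests on the deposited labels.

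The 5 genes that the MuSCs were selected on are a description and no finding. Chodl was detected in 88.0% of the MuSCs labelled WT and 92.8% of those labelled KO, Cdh15 in 64.9% and 69.5%, Pax7 in 57.7% and 77.1%, and Myf5 in 50.5% and 49.2%. Myod1 was detected in 96 and 118 of the MuSCs. Just inside the threshold were 70 and 45 cells with 2 of the genes, and just outside it 157 and 156 cells with 1. A further 67 and 73 cells had at least 2 of the genes and were left out because Pdgfra, Cdh5 or Ptprc was detected. These were deep cells, with medians of 16367 and 13466 UMIs. Of them 50 and 57 carried Cdh5, an endothelial cadherin.

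The label was checked against Asb5 and Gal, MuSC markers that the rule did not use. Asb5, a subunit of ubiquitin ligases, was detected in 76.4% (70.1 to 82.0) of the MuSCs labelled WT and 83.9% (78.6 to 88.3) of those labelled KO. It was detected in 0.935% and 1.05% of Pdgfra+ cells, whose median depths were 7981 and 8577 UMIs. In Ptprc+ cells, the leukocytes, the shares were 0.777% and 0.259% at medians of 6001 and 5781 UMIs. The MuSCs thus stood far above the level that free RNA gives in other cells. Among cells with 2 rule genes Asb5 was detected in 77.1% and 77.8%, and among those with 1 in 17.8% and 8.97%. Gal, the neuropeptide galanin, was detected in 63.5% (56.5 to 70.0) and 50.8% (44.3 to 57.4) of the MuSCs, and after each cell was thinned to 1000 UMIs in 33.5% and 32.9%. At equal depth the shares of Gal-detected MuSCs thus lay close together. The log2 ratio (KO over WT) of its summed level was -0.22 (-0.315 to -0.129). It was -0.34 in MuSCs with Pax7 detected and -0.01 in those of at most 20000 UMIs.

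Beyond the rule genes, the 15 genes with the largest excess in MuSCs over all other cells were led by Mymx, which encodes a myoblast fusion peptide, and included Fndc3c1, Popdc3, Vgll2, Erfe, Ntn5, Bves, Iqsec3 and Edn3. Several are surface proteins known from MuSCs or muscle: Calcr, the calcitonin receptor tied to quiescence, stood at 73.6 CPM in the MuSCs labelled WT and 1.44 CPM in the other cells. In the library labelled KO these values were 99.3 and 1.48 CPM. Fgfr4, a growth factor receptor of myoblasts, stood at 149.5 and 167 CPM in MuSCs, against 3.21 and 1.90 CPM elsewhere. Chrna1, a subunit of the acetylcholine receptor, stood at 157 and 147 CPM, against 3.21 and 1.76 CPM. An excess in both libraries was fixed by how the genes in the plot of levels were picked, and is no finding. The 15 genes were ranked by the lower of their excesses in the libraries, and the others are rule genes. The UMIs of Mymx came from 5 cells of the library labelled WT and 1 cell of that labelled KO. Those of Myog, another of the 15 genes, came from 12 and 5 cells.

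**Figure D1:**
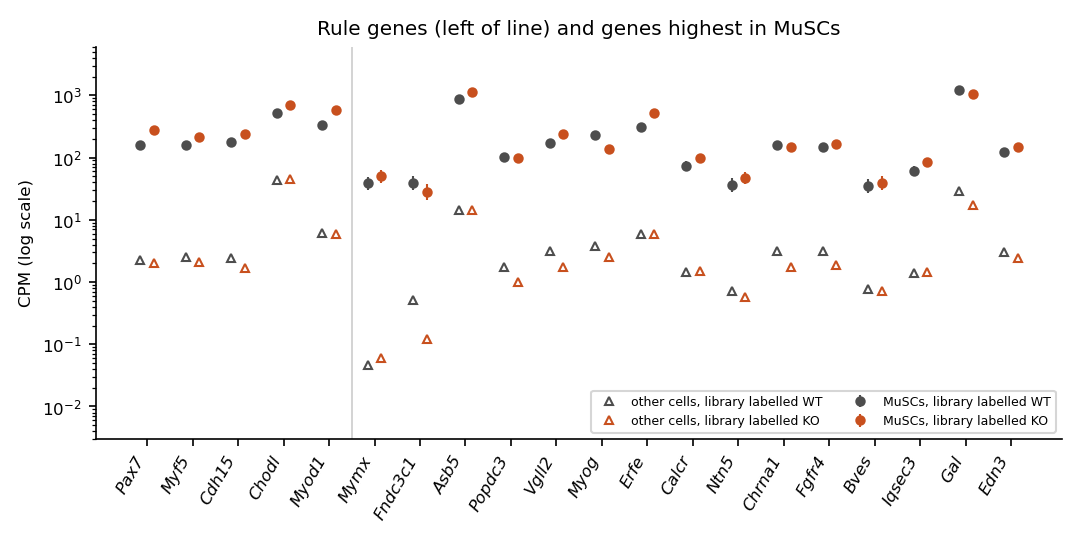
Level in CPM (log axis) of the 5 rule genes, left of the line, and of the 15 genes with the largest excess in MuSCs, right of it. Circles are MuSCs and open triangles all other cells, gray for the library labelled WT and orange for KO, with exact 95% Poisson bars on the circles. Every circle lies above the triangle of its library, for example 1241 against 29.1 CPM for Gal in the library labelled WT.

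Markers of other cell types were checked as lists. The summed level of the endothelial marker list was 102 CPM in the MuSCs labelled WT and 81.3 CPM in those labelled KO, against 7394 and 6617 CPM in other cells. The immune list stood at 108 and 161 CPM, against 6219 and 6766 CPM, and the red cell list at 25.7 and 36.5 CPM, against 714 and 2158 CPM. The gap was smaller for the pericyte list, at 840 and 833 CPM against 1466 and 1715 CPM, and for the Schwann cell list, at 101 and 181 CPM against 461 and 416 CPM. The pericyte list includes Notch3, described below with the stem-cell program, so its sum cannot be read as pericyte RNA alone. Rgs5, another gene of this list, stood at 111 and 82.6 CPM in the MuSCs labelled WT and KO. The 5 richest cells of each library held 86.2% and 83.7% of its UMIs. Cdh5, Ptprc and Pdgfra were at 0 by the rule. The tendon, fibroblast and fiber lists were higher in the MuSCs labelled KO, where 5 of 5, 6 of 6 and 6 of 7 genes tested had a ratio above 0. Tendon markers summed to 22.8 CPM in the MuSCs labelled WT and 345 CPM in those labelled KO, fibroblast markers to 2224 and 6107 CPM, and fiber markers to 687 and 3207 CPM. How far this lay in few cells differed between genes. In the MuSCs labelled KO, the 5 richest cells held 94.8% of the UMIs of Fmod, a proteoglycan of tendon, and 92.4% of those of Mylpf, a myosin light chain of fast fibers. They likewise held 84.1% of the UMIs of the collagen gene Col1a2. Of the other fibroblast markers, Col3a1 and Gsn were detected in most cells of both libraries, with more of their UMIs in few cells under the KO label. Col3a1, a further collagen gene, stood at 1071 and 1826 CPM and was detected in 94.2% and 93.6% of MuSCs. The 5 richest cells held 11.5% of its UMIs under the WT label and 33.2% under the KO label. Gsn, which severs actin filaments, stood at 650 and 1150 CPM, with 17.2% and 38.4% of its UMIs in such cells. How much of the higher levels of Col3a1 and Gsn lay in these cells was not tested. The log2 ratio of Fmod was 5.90 over all MuSCs and 1.94 without MuSCs over 20000 UMIs, and that of Col1a2 was 3.05 and 1.35. The ratio of Mylpf was 3.27 in that subset. Of the 10 genes with the largest excess in the library labelled KO, the 8 genes Col20a1, Fmod, Tnmd, Apod, Thbs4, Postn, Ptn and Mylpf had at least 89.5% of their UMIs in 5 cells. The values of these genes thus describe a few cells. How far RNA of other cells enters the programs below was not tested.

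Of 6759 genes with at least 50 UMIs in the MuSCs, 368 (5.44%) were at least 2-fold higher in the library labelled KO and 148 (2.19%) at least 2-fold lower. The median log2 ratio (KO over WT) of all of them was 0.03. The counts for each gene program below are read against these shares.

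Genes of the stem-cell program were, as a list, slightly higher in the MuSCs labelled KO. Of 46 genes, 37 had a ratio above 0, 2 were at least 2-fold higher and 1 at least 2-fold lower, with a median log2 ratio of 0.30 (0.20 to 0.44). Without the rule genes the median was 0.28 over 42 genes. The share past 2-fold in this list was thus close to that of all genes, and the list differed by a small shift of most members. The same list had medians of -0.11, 0.07 and -0.33 in Pdgfra+, Cdh5+ and Ptprc+ cells.

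Among the members with the larger ratios were the following. Tgfbr3, a TGF-beta coreceptor, stood at 179 CPM (159 to 200) in the MuSCs labelled WT and 381 CPM (351 to 413) in those labelled KO, a log2 ratio of 1.09. Cd34, a surface glycoprotein of quiescent MuSCs, stood at 43.4 and 98.0 CPM (log2 ratio, 1.18). In all other cells Cd34 stood higher, at 438.5 and 517 CPM, and how far their RNA enters its level in MuSCs was not tested. Sdc4, a heparan sulfate proteoglycan of MuSCs, stood at 1517 and 2369 CPM (0.64), and the adhesion protein Vcam1 at 296 and 499.6 CPM (0.76). Spry1, an inhibitor of FGF signaling that aids return to quiescence, stood at 94.8 CPM (80.9 to 110) and 189 CPM (168 to 212), a log2 ratio of 0.996. Each of these intervals is separate between the libraries. For Calcr the intervals of the levels overlapped, at a log2 ratio of 0.43 (0.09 to 0.78).

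The Notch pathway differed less evenly. Among its receptors, Notch3 stood at 237 and 394.5 CPM (log2 ratio, 0.73; 0.55 to 0.92) and Notch2 at 94.8 and 131 CPM (0.47; 0.17 to 0.78). Notch1 had a log2 ratio of 0.27 (0.00 to 0.54) and Rbpj, the DNA-binding partner of all Notch receptors, 0.30. Of the target genes, Heyl had a log2 ratio of 0.61 (0.23 to 0.98), while Hey1 at 0.30 and Hes1 at 0.26 had intervals that include 0. The ligand genes Jag1 and Dll1 belong to the activation list. Jag1 stood at 61.1 and 91.0 CPM, and Dll1 had only 29 and 13 UMIs.

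Members of the program that were lower in the library labelled KO were few. The ratio furthest below 0 was that of Cdkn1c, a cyclin-dependent kinase inhibitor that marks cells leaving the cycle, at 933 CPM in the MuSCs labelled WT and 329 CPM in those labelled KO (log2 ratio, -1.502; -1.65 to -1.36). The 5 richest cells held 74.8% and 91.3% of its UMIs. Among MuSCs with Pax7 detected its ratio turned to 0.42, a value that rested mostly on few cells. Of these MuSCs, 3 cells with Myog labelled WT held 172 of its UMIs, and 117 without Myog held 42. Under the KO label 2 cells with Myog held 326, and 180 without Myog held 46. Desmin (Des), the intermediate filament of muscle cells, stood at 1048 and 850 CPM. Pax7 itself, a rule gene, stood at 158 and 279 CPM, and in thinned cells was detected in 13.6% and 26.5%.

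The activation and differentiation list was mixed. Of 31 genes tested, 24 were above 0, 7 at least 2-fold higher and 1 at least 2-fold lower in the library labelled KO, with a median of 0.30 (0.06 to 0.62). Id3, an inhibitor of myogenic factors, stood at 454 and 992 CPM (log2 ratio, 1.13) and was detected in 65.4% and 78.8% of MuSCs. Igfbp5, a binding protein of insulin-like growth factors, stood at 382 and 726 CPM (0.93), and Myc, a growth regulator, at 449 and 632 CPM (0.49). Myod1, a rule gene, stood at 334.5 and 580 CPM. Cdkn1a, a cell-cycle inhibitor, was lower, at 722 and 505 CPM (-0.52). The members with the largest ratios rested on few UMIs, since Mef2c had 8 and 53, and Ccnd2 16 and 79, of which 78.5% lay in 5 cells.

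Late differentiation genes were found in few MuSCs of either library. Myog, the factor that starts terminal differentiation, was detected in 12 MuSCs of the library labelled WT and 5 of that labelled KO. Its level over all MuSCs was 235 and 136 CPM, a log2 ratio of -0.79. That direction was not stable: it was 0.46 among MuSCs with at least 3 rule genes and 1.57 among those with Pax7 detected. The latter value rested on 3 and 2 cells with Myog. The fusion gene Mymk, at 34.8 and 16.6 CPM, had 95.1% of its UMIs in 5 cells under the WT label and all of them in 3 cells under the KO label.

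Detection of Pax7 and Myog split the MuSCs into stages. Cells with Pax7 and without Myog numbered 117 of 208 (56.2%) in the library labelled WT and 180 of 236 (76.3%) in that labelled KO. Cells without either numbered 79 and 51. Detection depends on depth and Pax7 is a rule gene, so these shares are a description. In the Pax7+ Myog- cells Cdkn1c stood at 48.5 and 38.8 CPM, whereas in the 9 and 3 Pax7- Myog+ cells it stood at 8406 and 2634 CPM. Notch3 ran the other way, with 323 and 429 CPM in Pax7+ Myog- cells and 1 and 0 UMIs in Pax7- Myog+ cells. The Myog+ cells were also deeper, with medians of 29789 and 28318.5 UMIs in the 3 and 2 cells with Pax7 detected, and of 13669 and 11811 UMIs without it. Of these, the 2 Pax7+ Myog+ cells labelled KO held 38297 CPM of fibroblast markers and the 3 Pax7- Myog+ cells labelled KO 37227 CPM of fiber markers. Programs of stress and metabolism differed along the same order, as shown in the plot of cell states. The immediate-early list summed to 20934 CPM in Pax7+ Myog- cells labelled WT and to 8882 CPM in Pax7- Myog+ cells. The OXPHOS list summed to 19709 and 47176 CPM in the same cells.

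**Figure D2:**
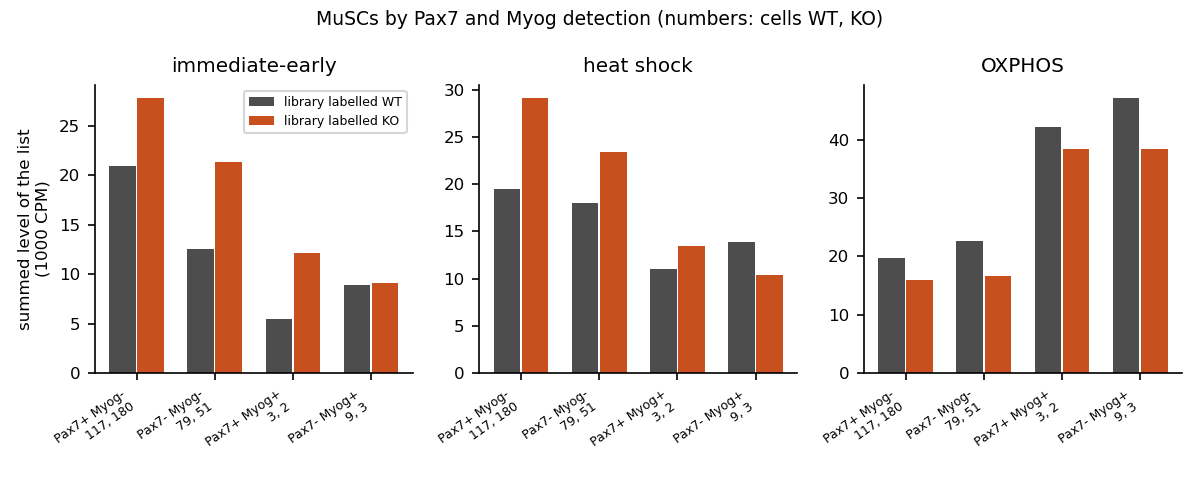
Summed level of the immediate-early, heat-shock and OXPHOS lists (in 1000 CPM; bars start at 0) in MuSCs split by detection of Pax7 and Myog, gray for the library labelled WT and orange for KO. The numbers of cells stand under each pair of bars. OXPHOS bars are tallest in the Myog+ cells, at 47176 CPM in Pax7- Myog+ cells labelled WT, and rest on 9 or fewer cells each; no error is drawn because there is 1 library per genotype.

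The cell-cycle list had a median ratio below 0 over all MuSCs, and its size varied with the cells taken. Of 22 genes tested in all MuSCs, 6 were above 0, none at least 2-fold higher and 2 at least 2-fold lower, with a median log2 ratio of -0.58 and an interval that includes 0 (-0.83 to 0.04). Stmn1, a microtubule regulator of dividing cells, stood at 318.5 and 152 CPM, and Ube2c, which acts in the exit from mitosis, at 97.0 and 51.9 CPM. Top2a, which untangles replicated DNA, stood at 99.3 and 102 CPM. MuSCs with Mki67 or Top2a detected numbered 20 (9.62%; 5.97 to 14.5) under the WT label and 12 (5.08%; 2.65 to 8.71) under the KO label, with overlapping intervals. Within these cells the list median was 0.50, and 19 of the 22 genes were above 0. Because the cells were picked on cell-cycle genes, that median is a description and shows no direction. These cells were deeper than most MuSCs, with medians of 16359.5 and 11163 UMIs. With at least 3 rule genes the list median was -1.01 (-1.445 to -0.685), with 0 of 20 genes above 0. With Pax7 required it was -1.2 (-1.583 to -0.473), with 0 of 15 above 0. Without MuSCs over 20000 UMIs the list median was -0.06, whereas it was -1.14 in Pax7+ Myog- cells and -0.02 in Pax7- Myog- cells. The part of these deep cells in the difference was not tested.

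Stress programs are described apart from these. The immediate-early list, genes that are transcribed within minutes of a stimulus, was higher in the MuSCs labelled KO. Of 33 genes tested, 29 were above 0, 15 at least 2-fold higher and 1 at least 2-fold lower in the library labelled KO, with a median log2 ratio of 0.98 (0.30 to 1.12). Egr1, a zinc-finger factor, stood at 1224 CPM (1173 to 1277) in the MuSCs labelled WT and 2979 CPM (2894 to 3066) in those labelled KO (log2 ratio, 1.28). Btg2, which restrains proliferation, stood at 317 and 1064 CPM (1.75), Cebpd, a factor of the acute-phase response, at 433 and 1277 CPM (1.56), and Atf3, a stress-induced factor, at 442 and 1022 CPM (1.21). Jun and Junb, subunits of AP-1, stood at 775 and 1659 CPM and at 788 and 1551 CPM. Other AP-1 subunits differed little: Fos had a log2 ratio of 0.16, Fosb 0.18 and Jund 0.27. Differences within the list were thus uneven.

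Cebpb, a close relative of Cebpd, went the other way, at 815 CPM (773 to 858) and 242 CPM (218 to 268), a log2 ratio of -1.75. In thinned cells it was detected in 53.4% and 20.5%, while Cebpd was detected in 32.5% and 51.7%. The lower Cebpb level was not particular to MuSCs, with log2 ratios of -1.56, -1.99 and -1.33 in Pdgfra+, Cdh5+ and Ptprc+ cells. For Egr1 the same cells gave 0.22, 0.41 and -0.22. Klf4, a zinc-finger factor, was lower in MuSCs (1051 and 667 CPM; -0.65) and in the other groups (-0.45, -0.61 and -1.24).

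Heat-shock genes, whose products refold damaged proteins, were higher for the inducible members. Of 15 genes, 12 were above 0, 3 at least 2-fold higher and none at least 2-fold lower, with a median of 0.68 (0.34 to 0.87). Hspa1a stood at 672 CPM (634.5 to 712) and 2304 CPM (2229 to 2380), Hspa1b at 641.5 CPM and 2773 CPM, and their cochaperone Dnajb1 at 275 and 1002 CPM, with log2 ratios of 1.78, 2.11 and 1.86. Hspa1a and Hspa1b are near-identical copies, so how reads were split between them is uncertain. Their summed level was 1314 and 5076 CPM (log2 ratio, 1.95; 1.88 to 2.02). The abundant Hsp90ab1 stood at 3942 and 3702 CPM (-0.09), and the constitutive Hspa8 at 3871 and 5359 CPM (0.47). Higher levels of this list were also seen in the other groups, with medians of 1.12, 0.26 and 0.79. In the promoters of the list, the heat-shock factor pair GAANNTTC, searched in either orientation, occurred in 9 of the 11 genes matched, against 9.04% of all genes with a RefSeq promoter window. The windows run from 250 bases before to 50 bases after each start on GRCm38.p6. Members share some of this sequence: Hspd1 and Hspe1 are read from a common promoter, and the 60 bases around the pair (capitals) were identical in Hspa1a and Hspa1b. The latter are shown because Hspa1b had the largest ratio of the list. They lie on the minus strand at chr17:34972227-34972286 and chr17:34959309-34959368.
Hspa1a: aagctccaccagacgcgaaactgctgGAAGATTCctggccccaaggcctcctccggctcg
Hspa1b: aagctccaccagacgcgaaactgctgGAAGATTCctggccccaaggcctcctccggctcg

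Genes downstream of NF-kB, a factor that drives inflammatory transcription, were higher in the MuSCs labelled KO. Of 19 genes tested, 17 were above 0 and 10 at least 2-fold higher, with none at least 2-fold lower and a median of 1.07 (0.47 to 1.37). Of the subunits, Nfkb1 stood at 267 and 562 CPM (log2 ratio, 1.07) and Relb at 50.2 and 109.5 CPM (1.12). Among the inhibitors the directions were split, with Nfkbie at 21 and 75 UMIs (2.003) and Nfkbiz at 62.2 and 167 CPM (1.43), but Nfkbia at 458 and 302 CPM (-0.60). Of the chemokines, Cxcl1, which attracts neutrophils, stood at 348 CPM (320.5 to 376) and 1045 CPM (995 to 1097) and was detected in 17.0% and 40.6% of thinned cells. Its ratio was 0.62 in Pdgfra+ cells, 0.23 in Cdh5+ cells and -1.40 in Ptprc+ cells. Cxcl2 had 37 UMIs in 24 cells and 451 UMIs in 40 cells, 71.4% of the latter in 5 cells. Il6 had only 29 and 64 UMIs.

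The NF-kB consensus motif, searched by its 10-base form on both strands, occurred in the promoter window of 11 of the 14 genes of this list that matched RefSeq, against 5.14% of all genes. Nfkbia, which holds the motif, differed in direction from most of the list. The 60 bases around it (capitals) are shown for the chemokine pair and for the inhibitors that went opposite ways. They lie at chr5:90891150-90891209 (plus strand), chr5:90903778-90903837 (plus), chr17:45555569-45555628 (plus) and chr12:55492648-55492707 (minus) of GRCm38.p6.
Cxcl1: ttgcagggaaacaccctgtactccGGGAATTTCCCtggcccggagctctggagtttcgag
Cxcl2: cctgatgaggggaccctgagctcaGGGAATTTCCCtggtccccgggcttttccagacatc
Nfkbie: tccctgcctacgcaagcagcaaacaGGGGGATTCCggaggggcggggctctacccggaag
Nfkbia: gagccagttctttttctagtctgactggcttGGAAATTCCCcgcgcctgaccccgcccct

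Cxcl1 and Cxcl2 hold the same run of capitals, in which matches on both strands overlap, and differed in level and in the number of cells. A match in this window is no evidence that the factor binds there. The NF-kB and heat-shock lists were picked by pathway, so a high share of these motifs is a description and no finding. In the immediate-early list the cyclic AMP response element TGACGTCA occurred in 3 of the 27 genes matched, against 2.03% of all genes. It was not particular to that list, since it also occurred in 5 of the 64 OXPHOS genes matched (7.81%). The immediate-early genes with the element were Btg2, Maff and Dusp1, with log2 ratios of 1.75, 1.47 and 0.28. The 60 bases around the element are shown for the former pair, at chr1:134079288-134079347 (minus strand) and chr15:79347460-79347519 (plus strand).
Btg2: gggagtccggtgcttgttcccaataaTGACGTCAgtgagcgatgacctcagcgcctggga
Maff: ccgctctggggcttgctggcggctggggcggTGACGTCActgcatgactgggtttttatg

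Metallothioneins and antioxidant genes formed a split list. Of 10 genes tested, 8 were above 0 and 3 at least 2-fold higher, with a median of 0.36 (-0.15 to 1.15). Mt1 and Mt2, which bind zinc, stood at 3647 and 8076 CPM and at 2540 and 5325 CPM, with log2 ratios of 1.15 and 1.07. Srxn1, which restores peroxiredoxins, stood at 404 and 1366 CPM (1.76). Prdx1 itself stood at 680 and 512 CPM (-0.41), and Hmox1, heme oxygenase, at 634 and 841 CPM (0.41). The ER stress list had a median of 0.32 over 12 genes, 9 of them above 0 and 1 at least 2-fold higher, Ddit3 (54.2 and 156 CPM). The ER chaperone Hspa5 stood at 1891 and 3384 CPM (log2 ratio, 0.84), and its log2 ratios were -0.16, -0.32 and -0.05 in Pdgfra+, Cdh5+ and Ptprc+ cells. Atf4, the central factor of the integrated stress response, had a log2 ratio of 0.04. Pmaip1, a proapoptotic gene outside these lists, had 11 UMIs in 8 cells and 115 UMIs in 53 cells.

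**Figure D3:**
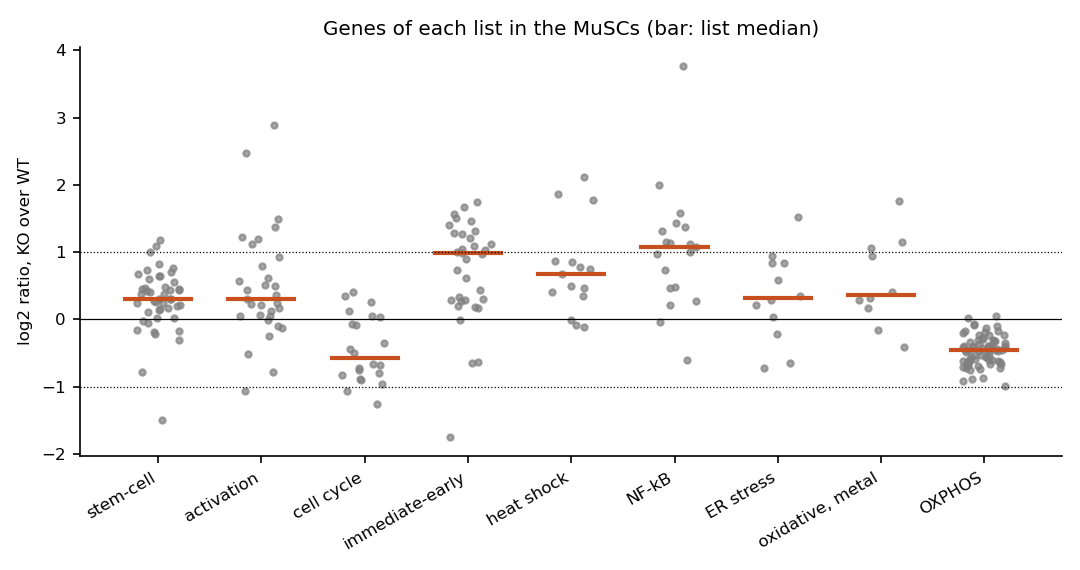
log2 ratio (KO over WT) of each gene with at least 50 UMIs in the MuSCs, 1 point per gene, by gene list, with the list median as an orange bar and dotted lines at 2-fold. The immediate-early and NF-kB lists have medians of 0.98 and 1.07, and nearly all OXPHOS genes lie below 0.

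OXPHOS genes, which encode the subunits of the mitochondrial respiratory chain, were lower in the MuSCs labelled KO, by differences under 2-fold that varied between genes. Of 74 genes in the nuclear list, 72 were below 0 and 60 had an interval wholly below 0, but none was 2-fold lower. The median was -0.45 (-0.53 to -0.41). Uqcrq, of complex III, stood at 558 and 280.5 CPM (log2 ratio, -0.99), Atp5k, of the ATP synthase, at 222 and 121 CPM (-0.87), and Cox8a, of complex IV, at 1392 and 1018 CPM (-0.45). Sdhc, of complex II, lay near 0, at 62.2 and 59.6 CPM (-0.06). The same list had medians of -0.09, -0.11 and -0.12 in Pdgfra+, Cdh5+ and Ptprc+ cells. The size moved with cell state and depth. It was -0.36 without Myog-detected MuSCs, -0.34 in those with Pax7 detected and -0.33 without those over 20000 UMIs. The part of cell state and depth in the difference was not tested.

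Per cell the programs overlapped widely between the libraries. At 1000 UMIs per cell, the median MuSC had 15 immediate-early UMIs under the WT label (range, 1 to 95) and 21 under the KO label (0 to 150). Heat-shock UMIs, summed over the list, had medians of 17 and 18, and the third quartiles of 23 and 30 lay further apart. The inducible Hspa1a alone was detected in 33.0% and 53.0% of these thinned cells, so its difference was not confined to a few cells. Metal and antioxidant UMIs had medians of 9 and 17, NF-kB UMIs 2 and 3, and OXPHOS UMIs 18 and 14. Genes per 1000 UMIs were 626.5 and 633, close to each other at equal depth. In the Pax7+ Myog- cells alone, the list medians of log2 ratios were 0.58 for immediate-early, 0.68 for heat-shock, 1.08 for NF-kB and -0.28 for OXPHOS genes. Each of these programs thus kept its direction in cells with Pax7 and without Myog. The stem-cell list had a median of only 0.16 there, with 30 of 46 genes above 0, and of 0.52 in Pax7- Myog- cells.

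**Figure D4:**
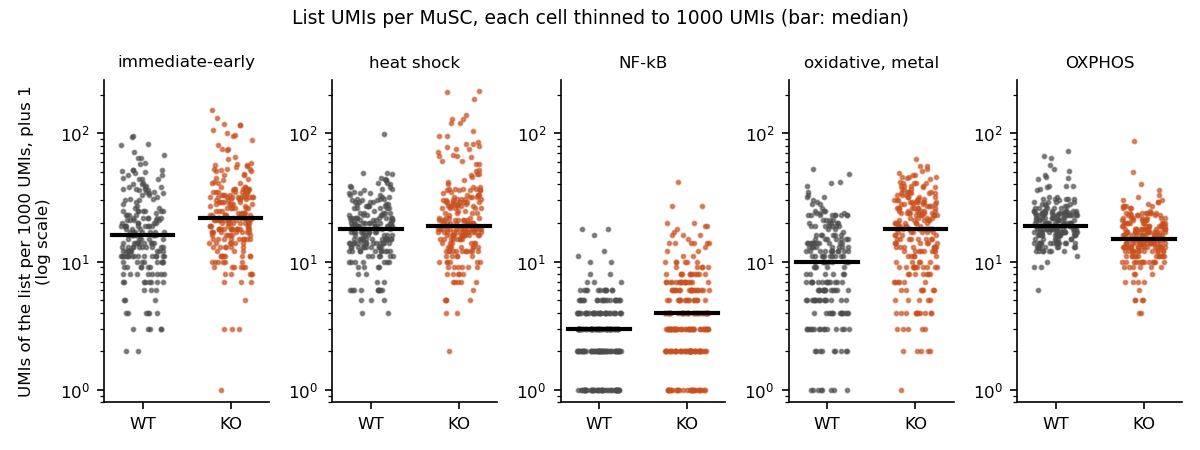
UMIs of 5 gene lists in each MuSC after thinning to 1000 UMIs, plus 1 (log axis), 206 cells under the WT label and 234 under the KO label, with the median as a black bar. The clouds overlap in every list; the heat-shock medians of 17 and 18 are close, while single cells of the library labelled KO reach 213.

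**Figure D5:**
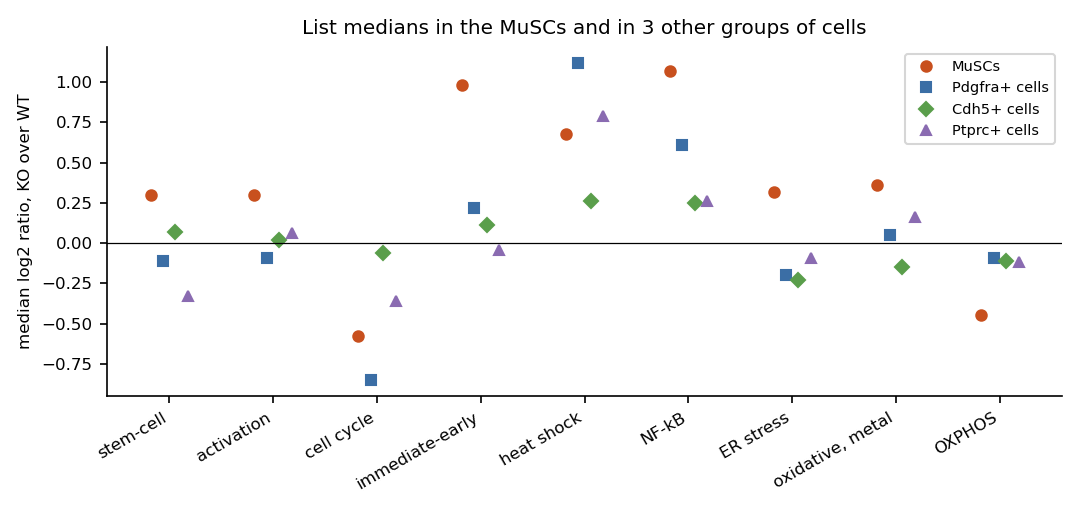
Median log2 ratio (KO over WT) of each gene list in MuSCs (orange circles) beside Pdgfra+ (blue squares), Cdh5+ (green diamonds) and Ptprc+ cells (purple triangles). The immediate-early median is 0.98 in MuSCs and 0.22, 0.11 and -0.04 in the others, whereas the heat-shock median is 0.68 against 1.12, 0.26 and 0.79; these differences between groups were not tested.

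Among receptors for inflammatory cytokines, Osmr, the oncostatin M receptor, stood at 79.9 CPM (67.2 to 94.3) in the MuSCs labelled WT and 282 CPM (257 to 310) in those labelled KO (log2 ratio, 1.82). It was detected in 71 and 152 cells. Its coreceptor Il6st stood at 201 and 298.5 CPM (0.57) and Stat3, the factor they activate, at 474 and 710 CPM (0.58). Osmr was also higher in the other groups (0.82, 0.69 and 1.16). Il18 had 12 and 14 UMIs and Il1b 3 and 2, levels at which a difference was not detectable at this depth.

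The genes lowest in the library labelled KO included several that were lower in all cells examined. Tpm3-rs7, a near-identical relative of the tropomyosin gene Tpm3, had 278 UMIs in the MuSCs labelled WT and 2 in those labelled KO. Tpm3 itself had 270 and 635 UMIs. Summed, the pair stood at 313 and 408 CPM (log2 ratio, 0.38; 0.22 to 0.55), and differed far less than either gene alone. The same opposite values were seen in Ptprc+ cells, where Tpm3-rs7 had a log2 ratio of -5.47 and Tpm3 of 1.03. How reads were split between these genes in each library was not tested. The sources used here do not say whether both libraries were counted with the same annotation and software version. A difference in counting cannot be told apart from the genotype, for this pair or for any other ratio given here. Brd1, a chromatin scaffold, and Csnk2a2, a catalytic subunit of casein kinase 2, were lower in MuSCs (-1.56 and -1.75) and in Ptprc+ cells (-1.21 and -1.21). Crls1, which makes the mitochondrial lipid cardiolipin, had a log2 ratio of -2.08 in MuSCs (51.4 and 12.2 CPM) and of -0.63, -0.71 and -0.49 in the other groups.

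The study marked subgroups of MuSCs with genes picked from these libraries, which are no independent evidence of a direction. Of Tpm3-rs7, Ndufa5 and Cox7b, none had a ratio above 0 (median log2 ratio, -0.69), and of Id3, Cebpd and Nfkbiz 3 of 3 were at least 2-fold higher in the library labelled KO (median, 1.43). The former set holds a gene whose reads may be split with Tpm3, and its other members encode subunits of the respiratory chain.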

How the data were processed

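Single-cell suspensions of CTX-injured gastrocnemius were captured with the 10x Genomics 5′ kit, and the authors counted UMIs with Cell Ranger (version 2.1.1 and genome build mm10 in the submitters' processing notes, another version in the study's methods) and processed them in Seurat after removal of doublets and of cells rich in mitochondrial RNA. The authors deposited 1 table in natural log units, ln(1 + UMIs per 10000 UMIs of the cell), with 19169 genes and 13432 cells. No mitochondrial gene is listed, so that filter could not be checked. Undoing the log gave back UMI counts, the largest distance from a whole UMI being 0.253 over 29528482 values. 4 barcode sequences occur in both libraries, none of them in a MuSC.

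UMIs were summed over the MuSCs of each library and given as counts per 1000000 UMIs (CPM) with exact Poisson 95% intervals. For a ratio (KO over WT), the exact binomial interval of a gene's UMI split was used, for shares of cells the exact Clopper-Pearson interval, and list medians the interval of their order statistics. All of these cover counting error, or the spread among genes, and not variation between mice. With 1 library per genotype no test was run, and a log2 ratio of at least 1 in a gene with at least 50 UMIs stood in for a call. Shares and list UMIs per cell were compared after thinning each cell to 1000 UMIs (seed, 1), which left out 2 cells of each library. The ratio step was tested on simulated data. Scrublet (in scanpy 1.11.5, per library) was run only as an alternative. Computation used matplotlib 3.10.9, pandas 2.3.3, scipy 1.17.1 and numpy 2.4.6 under Python 3.11.15.

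The members and gene lists were chosen with earlier results of these data known. Genes were named by rule: the 5 genes of the membership rule, Asb5 and Gal; in each list up to 6 genes with the largest ratios and up to 6 with the highest CPM; the 10 genes with the highest and the 10 with the lowest ratios among those with at least 100 UMIs; and the 15 genes with the largest excess over other cells. Tpm3, Sdhc, Atf3, Klf4, Relb, Vcam1, Mymk, Dusp1, the cytokines and the Notch pathway genes other than Notch3 were added after their values were seen. Promoter sequences are those of RefSeq on GRCm38.p6, the assembly behind mm10.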

Additional observations from a re-analysis of the deposited data

How the results depend on the processing

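Results were recomputed under 10 alternatives and under 3 more that were chosen after seeing the data (MuSCs without Myog, MuSCs of at most 20000 UMIs, and MuSCs with Pax7). No test was run under any of them. The share of MuSCs was recomputed only where the choice of cells differed, single genes only without a change of the UMI minimum, and the counts past 2-fold not with 10 CPM added. The medians of the stem-cell, activation, immediate-early and heat-shock lists stayed above 0 and within their intervals in all of these. The OXPHOS median stayed below 0 in all of them and lay outside its interval at -0.38 (mean over cells of UMIs per 10000), -0.36 (without Myog), -0.33 (at most 20000 UMIs) and -0.34 (with Pax7). Genes at least 2-fold higher in the library labelled KO numbered 745 with a minimum of 20 UMIs, 125 with 200 UMIs and 231 in MuSCs of at most 20000 UMIs. Genes at least 2-fold lower numbered 314, 33 and 98. The number of genes tested differs between these settings. The difference in the share of MuSCs became 0.683 percentage points (0.172 to 1.192) when Pax7 was required, which no longer includes 0. Myog turned to 0.46 with at least 3 rule genes and to 1.57 with Pax7, and Cdkn1c to 0.42 with Pax7. Among MuSCs with Pax7, Myog was detected in only 3 and 2 cells, which also held most Cdkn1c UMIs. The causes were not tested. The tendon list had no gene with enough UMIs in MuSCs of at most 20000 UMIs or with 4 further markers at 0, and gave no median there. No paired analysis was possible because there is 1 library per genotype. Scrublet called 0 and 3 of the MuSCs doublets. Depth limits genes with few UMIs most: a gene at the level of Gsdme had 9 and 13 UMIs over all MuSCs, and a difference there was not detectable.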
